A study of Botryllus schlosseri with 12 samples.

Results

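In the de novo transcriptome of the colonial tunicate Botryllus schlosseri, 13 of 26117 Trinity genes divided their count differently between contigs at 18 h than at 0 h after injury, at a summed level that differed by less than a log2 ratio of 1. They were selected on the deposited counts themselves, from the libraries of 0 and 18 h post injury (hpi). A gene had to have 2 or more contigs, a summed count of 50 or more in every library, a log2 ratio of mean summed CPM between 18 and 0 hpi with an absolute value under 1, and at least 1 contig whose mean share of the count of the gene differed by 0.3 or more between these time points. Of all Trinity genes, 4103 had 2 or more contigs, 2456 of those also reached the count minimum, and 2229 met everything but the difference in share. CPM are counts scaled by the total of the library, and a share is the percent of the count of a Trinity gene that one of its contigs received. The differences between 0 and 18 hpi therefore describe how the genes were chosen and carry no test.

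The data are RNA-seq of 12 colonies grown from subclones of 1 isogenic strain, a colony stock of a single genotype. Zooids and buds were cut away, which left mainly tunic and vasculature with its circulating cells. The paper reports that small pieces of adult zooid often stayed behind in its dissections. Of the colonies, 3 were frozen at once (0 hpi). The others stayed in filtered seawater and were frozen in groups of 3 at 6, 18 and 24 hpi. No uninjured colony was measured, so every value is relative to tissue frozen straight after surgery. In a whole colony, fewer cells of a type and less RNA per cell cannot be told apart.

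A Trinity gene is a group of contigs that the assembler built from overlapping sequence. Its contigs can be splice forms of a single gene, the alleles of a diploid genome, close paralogs, or fragments of a single transcript, and the counts do not say which. Alternative splicing and a change of promoter alter the transcript that a gene makes without a need to alter its total output, and unequal use of alleles or of paralogs gives the same picture in a table of contigs. Kallisto, which assigns reads to contigs without aligning them base by base, splits reads shared by several contigs among these by an estimate. Fractional counts mark such divided reads. Of the 38 contigs of the 13 genes, 35 had a fractional estimate in at least 1 library. At least 1 such contig was present in 12 of the 13 genes (92.3%) and in 90.9% of the 2216 other genes that met the rest of the rule.

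The rows of the table are open reading frames, and 12 of the 13 genes have a single row for each contig. Counts of contigs are counts of rows throughout. The exception is TRINITY_DN16581_c2_g2, whose 2 rows, i1.p1 and i1.p3, are reading frames on the same contig, so its change in share is a change between parts of 1 contig. It is also the only one of the 13 in which every estimate is a whole number. The paper named contigs after their best match among human proteins. The part of that list used here covers 1998 contigs, of which 0 have a match, and includes 0 of the 38. It therefore gave no names. None of the 13 genes holds a contig that the gene trees of the study label (C3/5, Sox7/17/18, coagulation factor XIIIb, TIE1/2 or Ets-1). None of these could be a member. C3/5, coagulation factor XIIIb and TIE1/2 have 1 contig each, the labelled Ets-1 contig has no counts here, and Sox7/17/18 did not meet the rest of the rule. For want of names no role is given to any of the 13 genes, and they are ordered by the pattern of their contigs.

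The totals of the libraries ranged from 2076597 to 3992991 counts. The summed count of a member gene in a library ranged from 51 to 2617, with a median of 162. The 95% Wilson interval of a share reached from 0.582 to 13.2 percentage points on either side, with a median of 6.42, and covers counting error only, not the division of reads between contigs. The 3 colonies of a time point differed by more than counting error, and the p-values below measure the spread between such colonies.

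For each gene, the contig whose mean share increased most from 0 to 18 hpi is called the gaining contig, and the one whose mean share decreased most the losing contig. Among the 13 genes, 8 had 2 contigs, 1 had 3, 1 had 4 and 3 had 5, where the 2 reading frames of TRINITY_DN16581_c2_g2 are counted as 2. The leading contig, which held the largest mean share, was a different one at 18 hpi than at 0 hpi in 9 of them. The largest difference of a mean share was 71.8 points, in TRINITY_DN14447_c1_g1, followed by 53.4 points in TRINITY_DN16045_c1_g5, 47.3 in TRINITY_DN17159_c2_g7, 41.2 in TRINITY_DN16593_c1_g2, 40.6 in TRINITY_DN16378_c0_g4 and 38.4 in TRINITY_DN18155_c0_g5. The remaining 7 lay between 30.5 and 36.6 points.

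**Figure D1:**
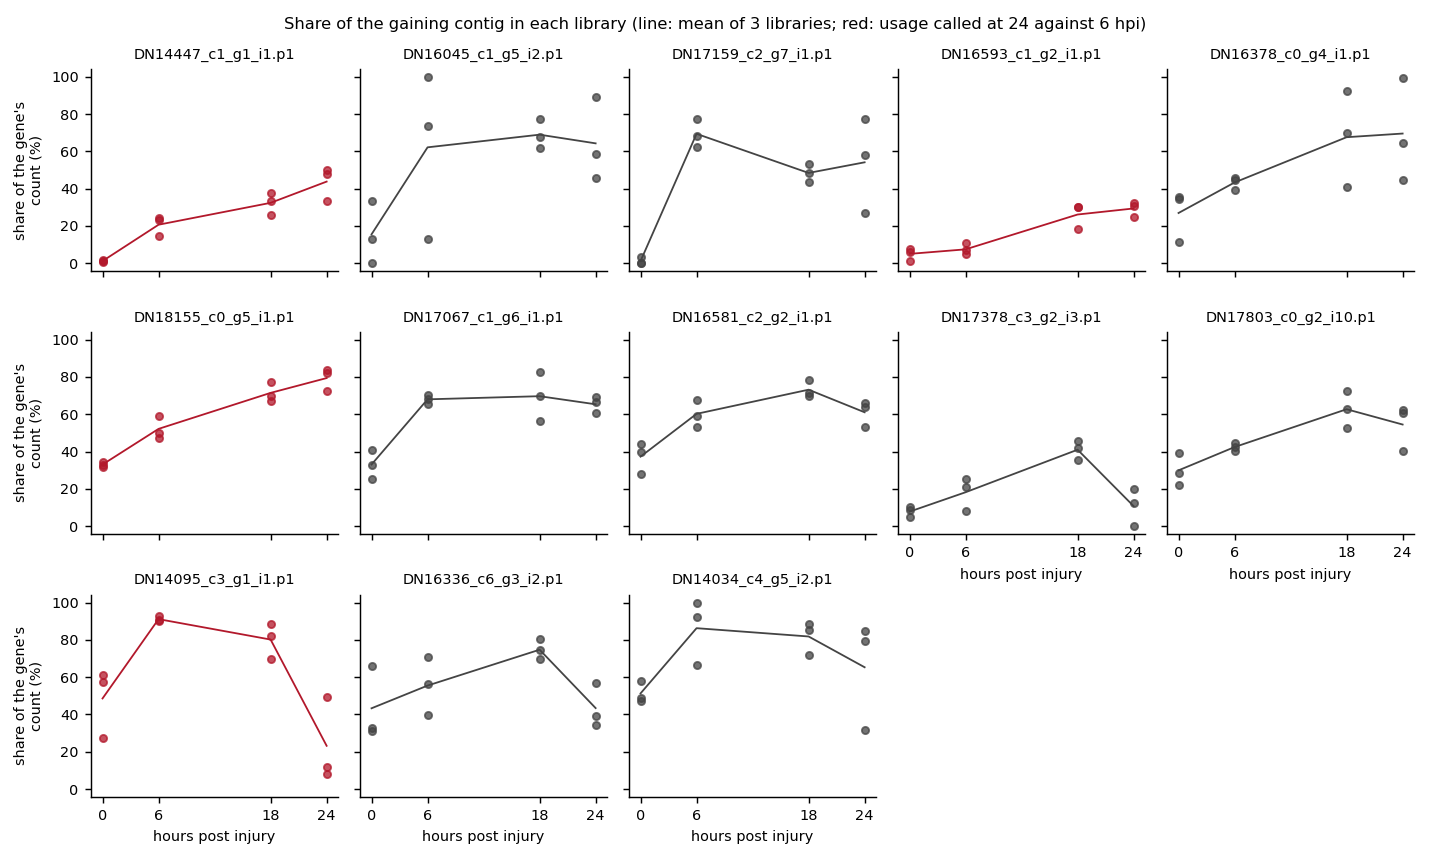
Share of the gaining contig (percent of the count of its gene, y axis) against hours post injury (x axis) in each of the 12 libraries, 1 panel for each of the 13 genes, ordered by the largest difference of share between 0 and 18 hpi. Points are libraries and lines join the means of 3; red panels are the 4 genes whose contig usage was called at 24 against 6 hpi, and titles leave out the prefix TRINITY_. The mean share climbed through 24 hpi in DN14447, DN16593, DN16378 and DN18155, with overlapping libraries at 18 and 24 hpi in each of them. In DN14095 it went from 91.1% at 6 hpi to 23.2% at 24 hpi.

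The means at 6 and 24 hpi are set here against those of 0 and 18 hpi, on which the genes were chosen. A choice on a large difference favors genes with extreme means at 0 or 18 hpi. A high point at 18 hpi, or a return after it, is therefore partly built into the choice. The counts that follow are a description and no test of timing. The mean share of the gaining contig was highest at 6 hpi in 3 genes, at 18 hpi in 6 and at 24 hpi in 4. At 6 hpi it had covered 50% or more of the distance between its means at 0 and 18 hpi in 7 genes, and at 24 hpi it stood at or beyond that point in 9. The plot of shares by library shows the 4 others. TRINITY_DN17378_c3_g2 and TRINITY_DN16336_c6_g3 were back near their values of 0 hpi, TRINITY_DN14034_c4_g5 stood between, and TRINITY_DN14095_c3_g1 lay below its value of 0 hpi.

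The libraries of 6 and 24 hpi did not enter the choice by share, and the contrast between them was tested. Contig usage, that is whether the contigs of a gene change by different factors, was tested with diffSpliceDGE of edgeR on a quasi-likelihood fit of all 12 libraries, with Benjamini-Hochberg adjustment over 3824 genes with 2 or more tested contigs. Usage was called at an adjusted p under 0.05 in 4 of the 13 genes, against 44 of all 3824 (1.15%) and 27 of the 2169 tested genes that met the rest of the rule (1.24%). At an unadjusted p under 0.05 there were 5 of 13, against 402 of 3824 (10.5%). The 4 genes called were TRINITY_DN16593_c1_g2, TRINITY_DN14447_c1_g1, TRINITY_DN18155_c0_g5 and TRINITY_DN14095_c3_g1. In the first 3 the share of the gaining contig was higher at 24 than at 6 hpi, as it had been at 18 against 0 hpi, and in the fourth it was lower.

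TRINITY_DN16593_c1_g2 had the smallest p. It has 4 contigs, and i4.p1 held most of its count at 0 and 6 hpi. The counts of i4.p1 were 93, 219 and 160 at 0 hpi, 249, 297 and 350 at 6 hpi, 57, 30 and 47 at 18 hpi and 74, 28 and 81 at 24 hpi. Every library of 18 and 24 hpi lay below every library of 0 and 6 hpi. The gaining contig i1.p1 had 9, 3 and 13 counts at 0 hpi, 41, 20 and 33 at 6 hpi, 19, 38 and 51 at 18 hpi and 92, 27 and 85 at 24 hpi. A further contig, i5.p1, had 10, 9 and 17 counts at 0 hpi, 41, 35 and 30 at 6 hpi, 9, 48 and 56 at 18 hpi and 99, 39 and 85 at 24 hpi. The share of i4.p1 was 77.3% ± 5.17 (SD, n = 3) at 0 hpi, 69.9% ± 4.36 at 6 hpi, 36.1% ± 17.9 at 18 hpi, with 27.1% ± 1.93 at 24 hpi. That of i1.p1 was 5.05% ± 3.41, 7.48% ± 2.90, 26.2% ± 6.55 and 29.4% ± 3.95 at the same time points, and the libraries of 6 and 24 hpi did not overlap. Usage differed between 24 and 6 hpi (diffSpliceDGE, adjusted p = 2.19e-05), with i1.p1 higher by 2.03 on the log2 scale relative to the gene as a whole. The level of i4.p1 fell by 2.75 on the log2 scale (SE 0.291, adjusted p = 2.22e-05, edgeR's quasi-likelihood test) while that of i1.p1 had a log2 fold change of 0.63 (SE 0.386, adjusted p = 0.384) and that of i5.p1 one of 0.62 (SE 0.398, adjusted p = 0.418). The fourth contig, i3.p3, has whole estimates in all 12 libraries. It went from 53, 63 and 65 counts at 6 hpi to 20, 14 and 25 at 24 hpi, a log2 fold change of -2.01 (SE 0.377, adjusted p = 0.00249), and its share was 14.2% ± 0.853 at 6 hpi and 9.67% ± 3.02 at 24 hpi.

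**Figure D2:**
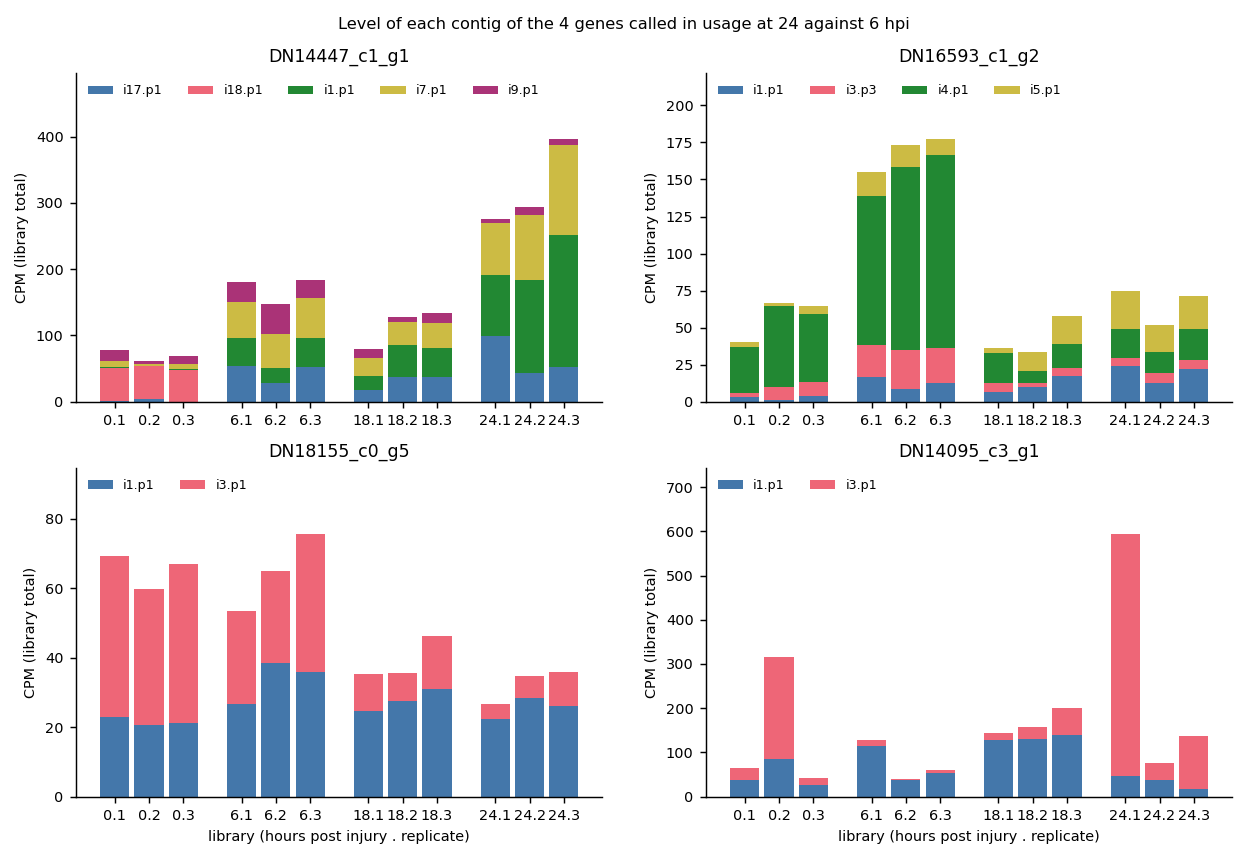
Level of every contig (stacked bars, CPM by library total, y axis from 0) in each of the 12 libraries (x axis, hours post injury and replicate number) for the 4 genes called in contig usage at 24 against 6 hpi, with titles that leave out the prefix TRINITY_. In DN14447 the contig i18.p1 fills most of the bars of 0 hpi and is absent from those of 24 hpi; in DN14095 a single library of 24 hpi reaches a sum of 595 CPM.

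TRINITY_DN14447_c1_g1 has 5 contigs, 1 of which had more than 2 counts at 0 hpi alone. The losing contig i18.p1 had 148, 197 and 168 counts at 0 hpi, 1, 2 and 0 at 6 hpi, 2, 0 and 0 at 18 hpi, and 0 in all 3 libraries of 24 hpi. Its share was 72.1% ± 8.40 (SD, n = 3) at 0 hpi and 0.314% ± 0.326 at 6 hpi. Over all 32561 contigs of the table, 4 had 50 or more counts in every library of 0 hpi and 3 or fewer in every other library, a count made after this contig was seen. No contig had that pattern at 6, 18 or 24 hpi. The gaining contig i1.p1 had 4, 2 and 3 counts at 0 hpi, 103, 53 and 119 at 6 hpi, 58, 184 and 130 at 18 hpi and 353, 291 and 777 at 24 hpi. Every later library lay above every library of 0 hpi, and every library of 24 hpi above every library of 6 hpi. Its share was 1.20% ± 0.605, 20.7% ± 5.04, 32.4% ± 5.98 and 43.8% ± 8.98 at the 4 time points in order.

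The contigs i7.p1 and i17.p1 of the same gene held much of the rest. The share of i7.p1 was 9.13% ± 4.04 (SD, n = 3) at 0 hpi, 32.7% ± 2.12 at 6 hpi, 29.8% ± 3.78 at 18 hpi, with 31.9% ± 2.97 at 24 hpi, so after 6 hpi it moved by less than its spread. That of i17.p1 was 2.77% ± 3.88 at 0 hpi and between 21.2% and 26.3% later. The contig i9.p1 took 20.6% ± 9.02 at 6 hpi and 3.03% ± 1.20 at 24 hpi, where it had 73, 110 and 71 against 23, 27 and 38 counts. Usage differed between 24 and 6 hpi (diffSpliceDGE, adjusted p = 0.00134). Between these time points i1.p1 rose by a log2 fold change of 1.98 (SE 0.378, adjusted p = 0.00650, edgeR's quasi-likelihood test) and i9.p1 fell by 1.89 on the log2 scale (SE 0.438, adjusted p = 0.0158). The call of i9.p1 was lost without replicate 2 of 6 hpi (adjusted p = 0.0689) or replicate 3 of 24 hpi (0.0643). The test of usage included i18.p1 at its few counts. With contigs of 3 or fewer counts in every library of 6 and 24 hpi left out, a choice made after the data were seen, the adjusted p was 0.00310. Without replicate 2 of 6 hpi the call was lost (adjusted p = 0.0518), and over all 20 alternatives the adjusted p ranged from 0.000188 to 0.0518.

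TRINITY_DN18155_c0_g5 has 2 contigs, and the mean share of the gaining one increased at every later time point. The gaining contig i1.p1 had 67, 82 and 74 counts at 0 hpi, 66, 92 and 96 at 6 hpi, 69, 105 and 90 at 18 hpi and 85, 59 and 102 at 24 hpi. The losing contig i3.p1 had 137, 157 and 158, then 66, 64 and 108, then 30, 30 and 44, and at 24 hpi 16, 13 and 38. Scaled by library total, i1.p1 had 20.6 to 22.8 CPM at 0 hpi, below every library of 6 hpi (26.8 to 38.5) and 18 hpi (24.5 to 31.1) and overlapping with 24 hpi (22.2 to 28.4). The mean CPM of i3.p1 was highest at 0 hpi and lower at each later time point. The share of i1.p1 was 33.1% ± 1.30 (SD, n = 3), 52.2% ± 6.19, 71.5% ± 5.35 and 79.4% ± 6.01 at the 4 time points in order. Usage differed between 24 and 6 hpi (diffSpliceDGE, adjusted p = 0.0216). The level of i3.p1 fell by 2.23 on the log2 scale (SE 0.316, adjusted p = 0.000226, edgeR's quasi-likelihood test), and that of i1.p1 had a log2 fold change of -0.43 (SE 0.206, adjusted p = 0.236). The usage call was lost without replicate 3 of 6 hpi (adjusted p = 0.0837), without replicate 2 of 24 hpi (0.0839), with the libraries of 6 and 24 hpi alone (0.115) and with the Simes method (0.133), and over all 20 alternatives the adjusted p ranged from 0.0121 to 0.133.

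TRINITY_DN14095_c3_g1 was the one gene called in usage that turned back. Its gaining contig i1.p1 had 110, 343 and 88 counts at 0 hpi, 285, 88 and 143 at 6 hpi, 357, 493 and 406 at 18 hpi and 180, 79 and 64 at 24 hpi. The other contig, i3.p1, had 82, 915 and 56 counts at 0 hpi, 29, 7 and 16 at 6 hpi, 46, 107 and 175 at 18 hpi and 2086, 80 and 470 at 24 hpi. It was low in every library of 6 hpi, and single libraries of 0 and 24 hpi stood far above their replicates. As shares, the colonies of a time point were closer at 6 hpi than at 24 hpi. The share of i1.p1 was 48.6% ± 18.6 (SD, n = 3) at 0 hpi, 91.1% ± 1.52 at 6 hpi, 80.2% ± 9.45 at 18 hpi, with 23.2% ± 23.0 at 24 hpi, with values of 7.93%, 49.6% and 12.1% in the libraries of 24 hpi. Usage differed between 24 and 6 hpi (diffSpliceDGE, adjusted p = 0.0216), with i1.p1 lower at 24 hpi in 3 of 3 libraries. Neither contig passed the test of levels between these time points. The log2 fold change of i3.p1 was 4.99 with an SE of 1.46 (adjusted p = 0.0815, edgeR's quasi-likelihood test), and that of i1.p1 was -1.07 with an SE of 0.554 (adjusted p = 0.317). DESeq2 called i3.p1 (adjusted p = 0.000411), as did edgeR without replicate 2 of 0 hpi (0.0345), within adjusted p-values from 0.000411 to 0.2215 over its alternatives. The usage call was lost in 8 of 20 alternatives, among them the removal of any 1 of the 6 libraries compared apart from replicate 2 of 24 hpi (adjusted p from 0.0594 to 0.0734 without each of the other 5), and over all 20 the adjusted p ranged from 0.00278 to 0.283.

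In the 9 other genes usage was not called between 24 and 6 hpi, with adjusted p-values from 0.454 to 0.996 (diffSpliceDGE). A gene can stand here because its shares stayed where they were, because its colonies disagreed or because the test missed a change. In simulated counts with a contig changed 2-fold at 24 against 6 hpi, the usage test called 7.46% of the changed genes. It called 58.2% at 4-fold and 87.9% at 8-fold. In TRINITY_DN17067_c1_g6 the mean shares after 0 hpi lay close together. Its contig i1.p1 held 68.0% ± 2.33 (SD, n = 3) of the count at 6 hpi, 69.7% ± 13.3 at 18 hpi and 65.4% ± 4.36 at 24 hpi, against 33.1% ± 7.77 at 0 hpi. In TRINITY_DN16581_c2_g2, the gene with its rows on 1 contig, reading frame p1 had 34, 35 and 63 counts at 0 hpi, 72, 39 and 54 at 6 hpi, 102, 102 and 87 at 18 hpi and 97, 41 and 119 at 24 hpi. Reading frame p3 had 51, 91 and 80, then 34, 34 and 37, then 41, 44 and 24, and then 50, 36 and 67. The share of p1 was 37.3% ± 8.47, 60.2% ± 7.29, 73.2% ± 4.55 and 61.1% ± 6.85 in order. TRINITY_DN17803_c0_g2 spread its count over 5 contigs. Its gaining contig i10.p1 held 29.9% ± 8.71, 42.4% ± 2.05, 62.7% ± 9.71 and 54.5% ± 12.3, and i6.p1 went from 12.5% ± 6.19 at 0 hpi to between 1.87% and 2.65% later.

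In 4 genes the colonies of 6 or 24 hpi were far apart. TRINITY_DN16045_c1_g5 had its gaining contig i2.p1 at 9, 45 and 68 counts and the losing contig i1.p1 at 58, 16 and 0 counts in the 3 libraries of 6 hpi. The share of i2.p1 therefore ran from 13.1% over 73.5% to 100% within that time point (SD 44.5 points), the widest spread of a gaining contig in the 13 genes. At 18 hpi the same contig had 71, 74 and 75 counts and a share of 69.0% ± 7.82 (SD, n = 3). TRINITY_DN17159_c2_g7 had its gaining contig i1.p1 at 7, 0 and 0 counts at 0 hpi, 129, 85 and 121 at 6 hpi, 86, 90 and 64 at 18 hpi and 56, 110 and 138 at 24 hpi. The libraries at 0 there had 326 and 181 counts for the gene, which by the floor of 3 counts allows shares of up to 0.920% and 1.66%, and by the upper Wilson bound of up to 1.165% and 2.08%. All 9 later libraries lay above every library of 0 hpi, with shares of 69.4% ± 7.63 at 6 hpi, 48.5% ± 4.96 at 18 hpi, with 54.2% ± 25.2 at 24 hpi. In the same gene i2.p1, i4.p1 and i5.p1 had 84, 136 and 83, then 40, 93 and 0, and then 58, 90 and 91 counts at 0 hpi. TRINITY_DN16378_c0_g4 had 64, 74 and 77 counts of i1.p1 at 24 hpi and shares of 44.9%, 99.2% and 64.6%, while its contig i5.p1 had 54, 0 and 31 counts and i7.p1 had 25, 1 and 11. TRINITY_DN14034_c4_g5 had shares of i2.p1 of 66.4%, 100% and 92.4% at 6 hpi and 31.6%, 79.6% and 84.8% at 24 hpi.

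In the last genes the mean share at 24 hpi was again near that of 0 hpi, and the high share at 18 hpi was part of the choice. In TRINITY_DN17378_c3_g2 the gaining contig i3.p1 had 5, 14 and 13 counts at 0 hpi, 25, 8 and 38 at 6 hpi, 50, 57 and 63 at 18 hpi and 18, 0 and 29 at 24 hpi. Its share was 41.0% ± 5.28 (SD, n = 3) at 18 hpi and between 7.80% and 18.2% by the means of the other time points, so that the libraries of 18 hpi stood apart from the other 9. In TRINITY_DN16336_c6_g3 the share of i2.p1 was 43.3% ± 19.6, 55.5% ± 15.6, 74.7% ± 5.42 and 43.4% ± 11.7, and replicate 1 of 0 hpi, at 65.9%, stood above its replicates at 31.0% and 33.0%. Neither gene was called in usage between 24 and 6 hpi (diffSpliceDGE, adjusted p = 0.760 and 0.723).

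**Figure D3:**
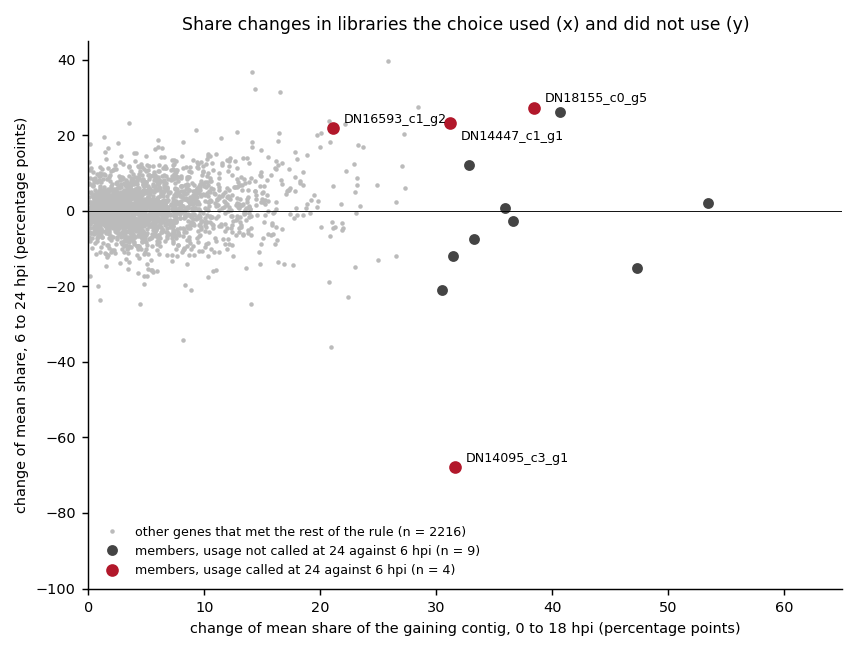
Change of the mean share of the gaining contig from 6 to 24 hpi (y axis, percentage points) against its change from 0 to 18 hpi (x axis, percentage points) for the 2229 genes that met the rule apart from the difference in share. Grey points are the 2216 other genes, dark points the 9 genes not called in usage at 24 against 6 hpi, and red points the 4 called; members lie on either side of 0 on the y axis, from -67.9 to 27.2 points.

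From 6 to 24 hpi the 13 genes had no common direction. The share of the gaining contig was higher at 24 than at 6 hpi in 7 of 13 genes (53.8%), against 1246 of 2229 (55.9%) of all genes that met the rest of the rule. The median change from 6 to 24 hpi was 0.84 points in the 13 genes and 0.60 in all 2229, while the median size of that change regardless of sign was 15.3 points in the 13 and 3.21 in the 2216 others. The libraries of 6 and 24 hpi did not overlap in the share of the gaining contig in 4 of 13 genes, against 333 of 2229 (14.9%). The genes thus moved more than others in both directions, as the plot of changes between the 2 pairs of time points shows, and their colonies also differed more. The median SD of the share of the gaining contig at 6 and 24 hpi was 8.26 points in the 13 and 4.17 in the 2216 others. The median biological coefficient of variation (edgeR) was 0.332 for the contigs of the 13 genes and 0.224 for all contigs tested. The latter include the contigs of genes with a single contig, and the value for the 2216 others alone was not computed. The number of contigs and the level were alike, with more than 2 contigs in 38.5% of the 13 and 38.9% of the others, and a median of mean summed CPM of 61.3 and 60.9. The part that the division of reads by Kallisto has in these differences was not tested.

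The library farthest from the mean of its time point was found by the share of the gaining contig. It was replicate 1 of 24 hpi in 4 genes and replicate 2 of 24 hpi in 3. In each of the other 6 it was a different library. This count was not made for the other genes that met the rest of the rule. Whether these libraries of 24 hpi stand out more in the chosen genes than in others was therefore not tested. Replicate 1 of 24 hpi lay lower by 33.7 points in TRINITY_DN14034_c4_g5, by 26.9 in TRINITY_DN17159_c2_g7, by 14.2 in TRINITY_DN17803_c0_g2 and by 10.3 in TRINITY_DN14447_c1_g1.

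Summed over contigs, 5 of the 13 genes fell between 6 and 24 hpi (edgeR's quasi-likelihood test on summed counts; adjusted p under 0.05 and a log2 fold change beyond 1 in size) and none passed these thresholds upward. Over all 25476 Trinity genes tested, 1687 passed in either direction (6.62%) and 1161 of these were lower at 24 hpi (4.56%). The rule had used the sums of 0 and 18 hpi but not this contrast. The 2 genes that fell most also had the highest mean CPM over all 12 libraries. That mean includes the values at 6 hpi, from which the fall is measured. TRINITY_DN17803_c0_g2 had 240, 205 and 191 CPM at 0 hpi, 1060, 915 and 953 at 6 hpi, 115, 153 and 125 at 18 hpi and 122, 164 and 146 at 24 hpi. Its log2 fold change between 24 and 6 hpi was -2.80 (SE 0.203, adjusted p = 2.43e-09, edgeR). TRINITY_DN17067_c1_g6 had 139, 91.9 and 102 CPM at 0 hpi, 792, 814 and 713 at 6 hpi, 57.4, 56.8 and 61.9 at 18 hpi and 62.0, 138 and 87.3 at 24 hpi, and a log2 fold change of -3.05 (SE 0.259, adjusted p = 7.06e-08, edgeR). In both, every library of 6 hpi lay above every other library. A rule on 18 against 0 hpi thus admitted genes whose sum had a high point between these times.

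**Figure D4:**
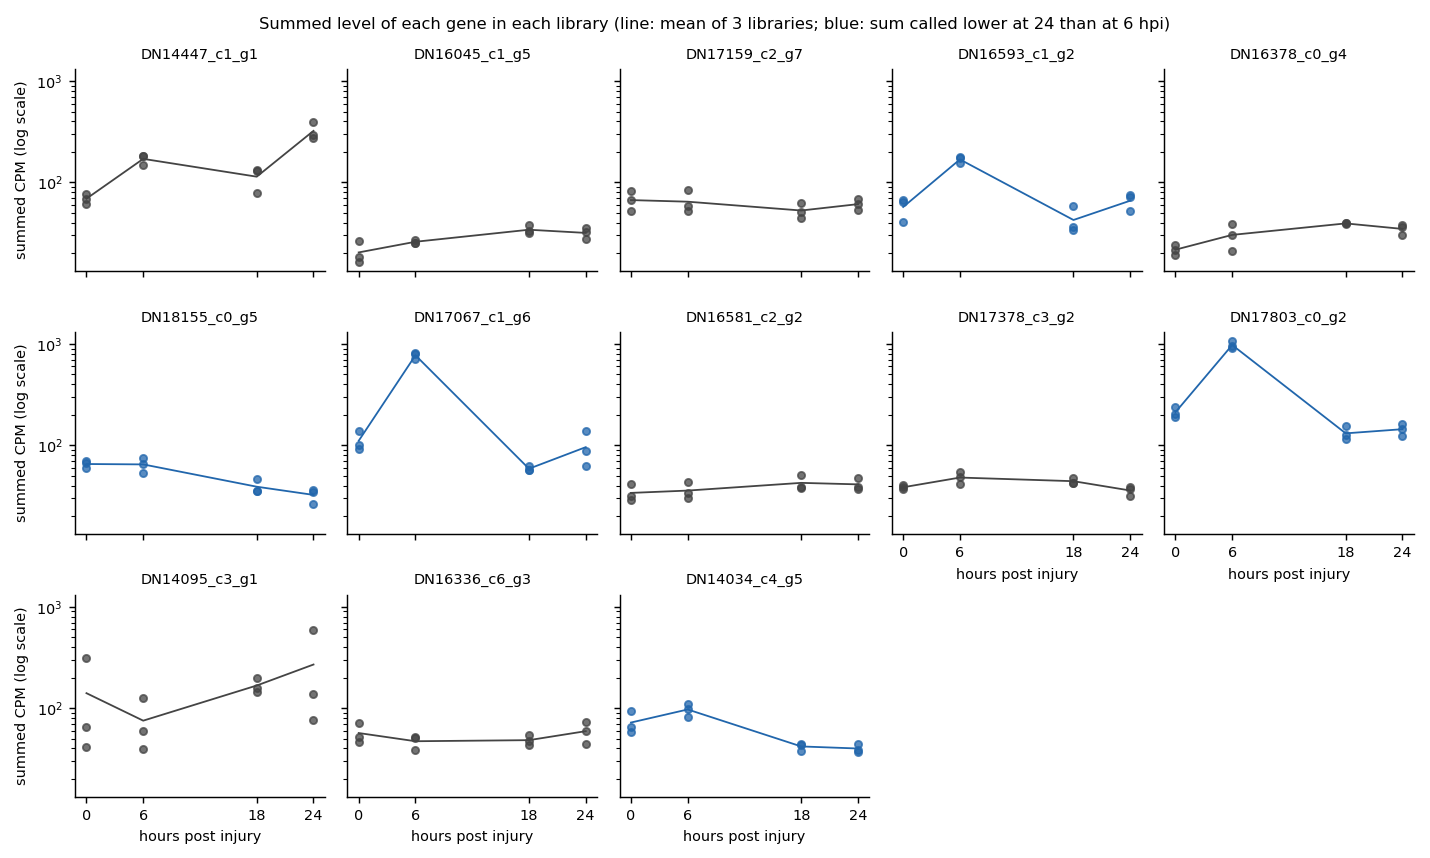
Summed level of each of the 13 genes (CPM by library total, y axis, log scale) against hours post injury (x axis). Points are libraries, lines join the means of 3, blue panels are the 5 genes whose sum was called lower at 24 than at 6 hpi, and titles leave out the prefix TRINITY_; DN17067 and DN17803 peak at 6 hpi with 773 and 976 CPM.

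The high point at 6 hpi did not fall on the contigs of these genes alike. In TRINITY_DN17067_c1_g6 the gaining contig i1.p1 had 134, 93 and 144 counts at 0 hpi, 1284, 1329 and 1350 at 6 hpi, 113, 121 and 149 at 18 hpi and 163, 174 and 226 at 24 hpi. The losing contig i4.p1 had 275, 274 and 208, then 672, 622 and 571, then 48, 94 and 31, and then 73, 113 and 114. Both were highest at 6 hpi in every library, and i4.p1 led before the peak while i1.p1 led at the peak and after it. In TRINITY_DN17803_c0_g2 the contigs i10.p1, i1.p1 and i5.p1 had their highest counts at 6 hpi, with 1160, 883 and 1095, 508, 633 and 753, and 659, 505 and 656. The contigs i6.p1 and i7.p1 overlapped between 0 and 6 hpi, with 121, 123 and 36 against 75, 60 and 16 counts of i6.p1 and 168, 184 and 90 against 214, 112 and 46 of i7.p1.

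The other sums that fell were those of TRINITY_DN16593_c1_g2, with a log2 fold change of -1.40 (SE 0.211, adjusted p = 7.08e-05, edgeR), TRINITY_DN14034_c4_g5 with -1.32 (SE 0.204, adjusted p = 9.21e-05) and TRINITY_DN18155_c0_g5 with -1.05 (SE 0.199, adjusted p = 0.000909). The first of these also had its highest libraries at 6 hpi, with 155, 173 and 178 CPM against 40.4, 66.9 and 64.4 at 0 hpi. The fall of TRINITY_DN18155_c0_g5 lay close to the fold threshold and lost its call without replicate 3 of 6 hpi (log2 fold change -0.91, adjusted p = 0.0112) or without replicate 1 of 24 hpi (-0.86, adjusted p = 0.00354), within a range of adjusted p from 9.49e-05 to 0.0112 over 18 alternatives. The sum of TRINITY_DN14447_c1_g1 was higher at 24 than at 6 hpi by 0.88 on the log2 scale (SE 0.205, adjusted p = 0.00569), under the fold threshold, with 276, 294 and 397 CPM against 180, 148 and 184. It passed the threshold without replicate 1 of 24 hpi (log2 fold change 1.03, adjusted p = 0.000392), and its adjusted p over 18 alternatives ranged from 0.000392 to 0.0598. In the other 7 genes the adjusted p-values of the sums were between 0.0910 and 0.816. Those of TRINITY_DN14095_c3_g1 were spread most, with 65.1, 315 and 41.6 CPM at 0 hpi and 595, 76.6 and 137 at 24 hpi.

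Of the 38 contigs, 37 passed the filter on low counts, and the one removed was i7.p2 of TRINITY_DN17159_c2_g7, with at most 10 counts in a library. Between 24 and 6 hpi 12 of the 37 were lower and 1 was higher (edgeR's quasi-likelihood test, the same thresholds), against 1927 of 31383 contigs in either direction (6.14%), with 1295 lower (4.13%) and 632 higher (2.01%). The contig that rose was i1.p1 of TRINITY_DN14447_c1_g1. Of the 12 that fell, 7 belong to TRINITY_DN17803_c0_g2 and TRINITY_DN17067_c1_g6, whose every contig fell, by 2.39 to 3.58 on the log2 scale. The calls of i1.p1, i6.p1 and i7.p1 of TRINITY_DN17803_c0_g2 and of i2.p1 of TRINITY_DN14034_c4_g5 were each lost without at least 1 single library, with adjusted p-values of up to 0.161. Contigs of a gene share reads and are not independent.

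The threshold on the difference in share falls inside a continuous range. The 3 genes just inside were TRINITY_DN14095_c3_g1 at 31.6 points, TRINITY_DN16336_c6_g3 at 31.4 and TRINITY_DN14034_c4_g5 at 30.5. The 3 just outside were TRINITY_DN14160_c1_g1 at 28.42 points, TRINITY_DN18223_c5_g6 at 28.40 and TRINITY_DN15517_c1_g2 at 27.3. The contig of largest difference in TRINITY_DN18223_c5_g6 had a share of 69.2% ± 1.90 (SD, n = 3) at 0 hpi and 40.8% ± 3.09 at 18 hpi, closer among colonies than the 56.7% ± 19.6 and 25.3% ± 5.42 of TRINITY_DN16336_c6_g3 inside the threshold.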

How the data were processed

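The authors removed ribosomal reads, trimmed with Trimmomatic 0.30, assembled the reads with Trinity, predicted reading frames with TransDecoder, merged near-identical sequences with cd-hit-est and assigned reads with kallisto 0.43.1. The deposited values are its estimated counts (expected counts) for 32561 rows in 12 libraries, neither normalized nor divided by length. No genome was used. Columns without a sample numbered 0. The members and lists were chosen with earlier results of these data known.

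Shares and CPM by library total were computed from the estimates. For tests these were rounded to whole numbers. Tests used R 4.3.3 and edgeR 4.0.16 (TMM, filterByExpr, robust quasi-likelihood fit of all 12 libraries, diffSpliceDGE for usage), and limma 3.58.1 and DESeq2 1.42.0 served as alternatives. The functions were tested on simulated data. Standard errors were derived from the log2 fold change and the F statistic. Replicates differed beyond sampling noise (chi-square per degree of freedom at least 3.14).

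Genes were named by a rule: the 6 members with the largest difference in share, those called in usage, the 4 of highest mean CPM, the 3 on either side of the threshold, and any labelled in the trees of the study. The remaining members are named so that each of the 13 is accounted for. Alternatives covered scaling, filter, tool, libraries in the fit, thresholds of the rule, whole estimates alone, a replicate block and each library left out. No contig sequence was used here.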

Additional observations from a re-analysis of the deposited data

How the results depend on the processing

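The number of genes that met the rule was 63 with a difference in share of 0.2 or more, 5 with 0.4, 26 with a summed count of 20 or more, 5 with 100, 13 with TMM factors in the CPM (12 of them shared), 12 with shares of pooled counts, and between 14 and 17 without 1 library of 0 or 18 hpi, of which 9 to 12 were shared. With contigs of whole estimates alone, 1 gene met it, TRINITY_DN16581_c2_g2. The share of its gaining contig was 60.2% ± 7.29 (SD, n = 3) at 6 hpi and 61.1% ± 6.85 at 24 hpi, a difference inside its spread. That gene was not called in usage (diffSpliceDGE, 0 called, adjusted p = 0.982). By leaving out 1 library of 6 or 24 hpi, the count of genes that kept their direction lay between 5 and 7. Usage between 24 and 6 hpi was called in 2 members and 22 of all genes with the Simes method, in 3 and 26 with limma voom, in 3 and 20 with the libraries of 6 and 24 hpi alone, and in 2 to 4 members and 26 to 62 of all genes without 1 library. The main fits did not pair colonies by replicate number. Correlations of same-numbered libraries ran from -0.139 to 0.0918 over all pairs of time points. Between 6 and 24 hpi they ran from 0.0284 to 0.0918, against -0.063 to 0.0226 for unlike numbers. With a replicate block usage was called in 3 members and 29 of all genes, with 13 contigs and 5 sums called as before. TRINITY_DN14095_c3_g1 then lost its usage call (diffSpliceDGE, adjusted p = 0.0522). DESeq2 called 14 contigs and 5 sums, and without 1 library 9 to 13 contigs and 4 to 5 sums were called. Scaling by DESeq2 size factors or library size changed none of these counts for the members. Among 1158 single values of genes and contigs under alternatives 1115 kept their side of the threshold, 39 lost the call, 4 gained it, and 0 called values changed sign. Most of the 1158 belong to results that were not called and had no call to lose. Over 20 alternatives each, the usage call was kept in 20 for TRINITY_DN16593_c1_g2 and 19 for TRINITY_DN14447_c1_g1. It was kept in 16 for TRINITY_DN18155_c0_g5 and 12 for TRINITY_DN14095_c3_g1. The causes were not tested. At a median of 162 counts per gene and library, the 95% Wilson interval of a share reached a median of 6.42 points on either side.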
